A study of Danio rerio with 23 samples.

Results

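The effect of losing akr1a1a in zebrafish larvae with an intact glo1 gene was examined by comparing the 5 AKR1A1AKO libraries with the 6 WT libraries, 11 of the 23 libraries sequenced, chosen by their genotype labels. Of 22856 genes listed, 19892 passed a filter on low counts and were tested. All larvae were untreated, carried the Tg(fli1:EGFP) transgene, in which the endothelial fli1 promoter drives a green fluorescent protein, and were collected whole at 96 hours post fertilization (hpf). AKR1A1AKO larvae lacked akr1a1a through CRISPR/Cas9 editing, WT larvae carried neither knockout, GLO1KO larvae lacked glo1, and DKO larvae lacked both genes. The GLO1KO and DKO libraries, 6 each, served only to set the loss of akr1a1a beside its loss on a glo1 knockout background. By the study's methods, DKO fish descended from a cross of the GLO1KO and AKR1A1AKO lines, and each library pooled many larvae. The study reports that a wild-type line came from the same cross, while each single knockout line was made separately. Whether AKR1A1AKO and WT larvae also differed in line background was not tested. No shared clutch, date or batch was named in the labels, so p-values measure the spread between these pooled libraries.

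The AKR1A1 enzyme is an NADPH-dependent aldehyde reductase that turns reactive aldehydes such as acrolein into alcohols, and GLO1 is the glyoxalase that clears methylglyoxal with the help of glutathione. Both aldehydes arise from metabolism or lipid peroxidation and modify proteins when they accumulate. At this age the larva still draws on its yolk, its liver and exocrine pancreas have begun to secrete, and its retina is maturing. In RNA from whole larvae, fewer cells of a type and less RNA per cell cannot be told apart.

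Counts of akr1a1a itself were not analysed here, and its loss could not be checked. AKR1A1 (ENSDARG00000052030), a related gene that was counted, stood at 16.1, 17.8, 18.5, 15.7 and 17.3 CPM (edgeR's counts scaled to the size of each library) in the AKR1A1AKO libraries and at 14.9 to 18.8 CPM in WT (median 16.7). The ranges of AKR1A1 overlapped (log2 fold change 0.05, standard error 0.0754, adjusted p = 0.653, edgeR's quasi-likelihood test). GLO1 (ENSDARG00000068978) stood at 82.1, 79.9, 83.3, 74.5 and 86.9 CPM in AKR1A1AKO and 73.5 to 87.1 CPM in WT, against 2.85 to 3.45 CPM in GLO1KO and 2.73 to 4.16 CPM in DKO. GLO1 was thus low in the libraries labelled as glo1 knockouts and overlapped between AKR1A1AKO and WT.

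Total counts ran from 35164300 to 36804418 in WT and from 34455907 to 35676522 in AKR1A1AKO, and the mean difference of -927799 gave p = 0.0519 in an exact two-sided permutation test over the libraries. The WT libraries were spread along the direction that separated the genotypes. On the main axis of variation, WT replicates 1 to 6 scored -56.0, -38.0, -22.6, -10.4, -7.8 and -0.4, and the AKR1A1AKO libraries scored 18.2 to 39.4. WT replicates 1 to 3 therefore lay farthest from AKR1A1AKO. WT replicate 1 differed more than 2-fold from the mean of the other WT libraries at 391 genes, against 13 to 77 genes for the other 5 WT libraries. Of the 1846 genes called lower in AKR1A1AKO, 91.1% were also higher in WT replicates 1 to 3 than in WT replicates 4 to 6. The share was 22.9% of the genes called higher and 49.4% of all genes tested. The same WT libraries entered the calls, so these shares are not independent of them. The main results are therefore given with all 6 WT libraries and again without WT replicates 1 to 3, a comparison added after seeing the data. WT scores on the main axis rose in steps from replicate 1 to 6. WT replicate 3 differed more than 2-fold from the other WT libraries at 13 genes and WT replicate 6 at 77. The 3 libraries left out are thus not a set marked off by that measure. What lay behind the spread was not tested.

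**Figure D1:**
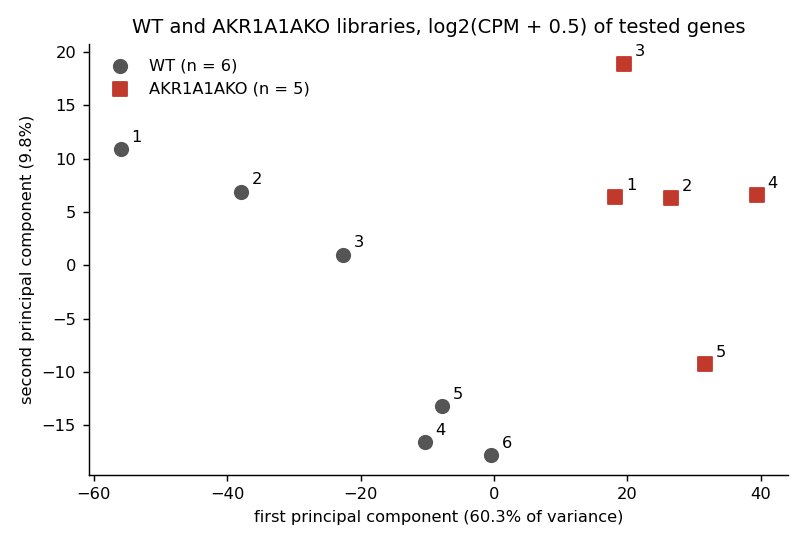
Scores of the 6 WT and 5 AKR1A1AKO libraries on the first and second principal components (axes, with the percent of variance each holds), numbered by replicate. WT scores on the horizontal axis run from -56.0 (replicate 1) to -0.4 (replicate 6), and AKR1A1AKO scores from 18.2 to 39.4.

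Most genes called changed after loss of akr1a1a were lower. With an adjusted p below 0.05 and more than a 1.5-fold difference required, 2296 genes (11.5%) were called, of which 450 (2.26% of those tested) were higher and 1846 (9.28%) were lower in AKR1A1AKO than in WT. At any fold change 7470 genes (37.6%) passed the adjusted p, 3545 (17.8%) higher and 3925 (19.7%) lower. At an unadjusted p below 0.05, without a fold threshold, 4635 genes (23.3%) were higher and 4961 (24.9%) were lower. AKR1A1AKO and WT libraries had separate CPM ranges at 3746 genes (18.8%), of which 1981 (9.96%) were higher and 1765 (8.87%) were lower. Against WT replicates 4 to 6 alone 1023 genes (5.13%) were called, 232 higher (1.16%) and 791 lower (3.97%), and 189 of the 450 and 706 of the 1846 genes were called again. All others of these genes that were tested there had the same direction, and 16 of the lower genes were not tested. The AKR1A1AKO libraries and WT replicates 4 to 6 entered both fits, so the shared direction is not independent of the calls. With each library left out in turn, 320 to 567 genes were higher and 1395 to 2120 were lower, and 223 of the 450 and 1171 of the 1846 genes were called in all of those fits.

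Hepatocyte genes for plasma proteins and apolipoproteins had a lower median than any of the other lists examined. Of the 65 tested, 50 fell and 1 rose, where 9.28% of all genes fell and 2.26% rose, and the median log2 fold change was -1.20 against -0.007 over all genes. Transferrin (tfa), the iron carrier of plasma, stood at 405, 210.2, 404, 179 and 138 CPM in AKR1A1AKO and at 494 to 1650.3 CPM in WT (median 755). All AKR1A1AKO libraries were below all WT libraries, and tfa fell (log2 fold change -1.79, standard error 0.364, adjusted p = 0.00354). The apolipoprotein gene apoa1b, for a component of high-density lipoprotein, stood at 1417, 604, 1522, 632 and 759.8 CPM against 1524 to 3578 CPM in WT (median 2044). AKR1A1AKO replicate 3 nearly reached the lowest WT library, and apoa1b fell (log2 fold change -1.25, standard error 0.296, adjusted p = 0.00685). Its partner apoa2 fell by 1.39 on the log2 scale, and fabp10a, for the liver fatty acid binding protein, by 0.88 with overlapping ranges.

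The liver genes with the smallest p-values included inhibitors of proteolysis and a complement component. The antiplasmin genes serpinf2a and serpinf2b, which restrain the dissolution of clots, fell by 1.78 and 1.89 on the log2 scale (adjusted p = 0.0015 and 0.00167). The complement gene c8a, part of the membrane attack complex, fell by 1.83 on the same scale. Outside the list, apcs, for a pentraxin of plasma, stood at 2.84, 0.488, 2.21, 1.28 and 0.875 CPM in AKR1A1AKO against 5.5 to 15 CPM in WT (median 10.1), without overlap, and fell by 2.76. The list member that rose, serpina7, encodes a thyroxine-binding serpin in mammals, lies on the chromosome of akr1a1a and is described with its neighbours.

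The liver difference moved in part with WT replicates 1 to 3. The summed level of the list was 7464 to 12717 CPM in WT replicates 1 to 3, 5074 to 5709 CPM in WT replicates 4 to 6 and 2659 to 5039 CPM in AKR1A1AKO. Against WT replicates 4 to 6 alone the median was -0.60 and 20 of the 65 genes were lower, against 3.97% of all genes. In that comparison tfa (-1.08, adjusted p = 0.0254), apoa2 (-0.93), serpinf2a (-1.23), serpinf2b (-1.19) and c8a (-1.15) of the list were called again, as was apcs (-2.15). The values of apoa1b (-0.75, adjusted p = 0.0714) and fabp10a (-0.51, adjusted p = 0.146) did not pass. With each library left out in turn, 43 to 52 of the liver genes were lower.

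The digestive enzymes of the exocrine pancreas and the transporters of the gut were lower as a list, with AKR1A1AKO replicate 3 within the WT range. Of 47 genes tested, 30 fell (63.8%) and none rose, against 9.28% and 2.26% of all genes, with a median of -1.05. No member was higher at an unadjusted p below 0.05, where 23.3% of all genes were, or by DESeq2 or limma-trend. Trypsinogen (prss1) stood at 97.1, 58.7, 117, 42.9 and 52.3 CPM in AKR1A1AKO and at 102 to 382 CPM in WT (median 118.9). AKR1A1AKO replicate 3 lay within the WT range, and prss1 fell (log2 fold change -1.30, standard error 0.386, adjusted p = 0.0186). Chymotrypsinogen (ctrb.1) and pancreatic amylase (amy2a) fell by 1.65 and 1.79 on the log2 scale, also with overlapping ranges. The lipase gene CEL (ENSDARG00000029822), whose product cleaves dietary lipid esters, stood at 1.43, 1.11, 1.9, 0.918 and 0.629 CPM against 2.91 to 12.5 CPM in WT (median 3.5), without overlap, and fell by 2.24 (adjusted p = 0.00305). A further gene of that symbol is listed, so reads may have been divided between copies. SLC5A1, the sodium-glucose cotransporter of the gut brush border, fell by 1.68, and the intestinal transcription factors cdx1a and cdx1b by 0.87 and 0.76.

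WT replicates 1 and 2 held 382 and 264 CPM of prss1, and the other 4 WT libraries held 102 to 123 CPM. With WT replicates 1 to 3 left out, 7 of the 47 genes were lower, against 3.97% of all genes, and the median was -0.47. CEL (-1.46) and SLC5A1 (-0.94) were called again, cdx1a (-0.58) and cdx1b (-0.45) passed the adjusted p but not the fold threshold, and prss1 (-0.63, adjusted p = 0.104), ctrb.1 (-0.60, adjusted p = 0.174) and amy2a (-0.59, adjusted p = 0.0783) did not pass. Leaving out AKR1A1AKO replicate 4, the lowest for prss1, took the count of lower genes from 30 to 17.

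The enzymes, receptors and pumps that process drugs, sterols and bile acids were lower too. Of 74 genes tested, 41 fell (55.4%) and none rose (median -0.76), against 9.28% and 2.26% of all genes. At an unadjusted p below 0.05, 4 were higher (5.41%, against 23.3% of all genes), and none was called higher by DESeq2 or limma-trend. CYP7A1, the rate-limiting enzyme of bile acid synthesis, stood at 13, 8.9, 17.3, 11.7 and 12.2 CPM in AKR1A1AKO and at 22.3 CPM or more in WT (median 30.8). Its ranges did not overlap, and it fell (log2 fold change -1.66, standard error 0.324, adjusted p = 0.00294). FGF19, in mammals the ileal hormone that represses CYP7A1 and not on the list, was also lower, at 2.04, 0.732, 2.07, 1.06 and 1.59 CPM against 5.59 to 10.7 CPM in WT (median 7.34), and fell by 2.35 on the log2 scale (adjusted p = 8.38e-05). The canalicular exporter abcc2 and the bilirubin-conjugating UGT1A1 fell by 1.16 and 1.27, and NR1I2, the pregnane X receptor, by 0.85. cyp1d1, a cytochrome P450 of the CYP1 family, stood at 13.9 to 16.6 CPM in AKR1A1AKO and 24.6 to 36.4 CPM in WT and fell by 0.93 (adjusted p = 9.49e-05). In the comparison without WT replicates 1 to 3, 15 genes were lower and 1 was higher, against 3.97% and 1.16% of all genes, with a median of -0.38. CYP7A1 (-0.85) and cyp1d1 (-0.75) of the list were called there, as was FGF19 (-2.16), and abcc2 (-0.49, adjusted p = 0.106), UGT1A1 (-0.55, adjusted p = 0.115) and NR1I2 (-0.50, adjusted p = 0.0632) were not.

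**Figure D2:**
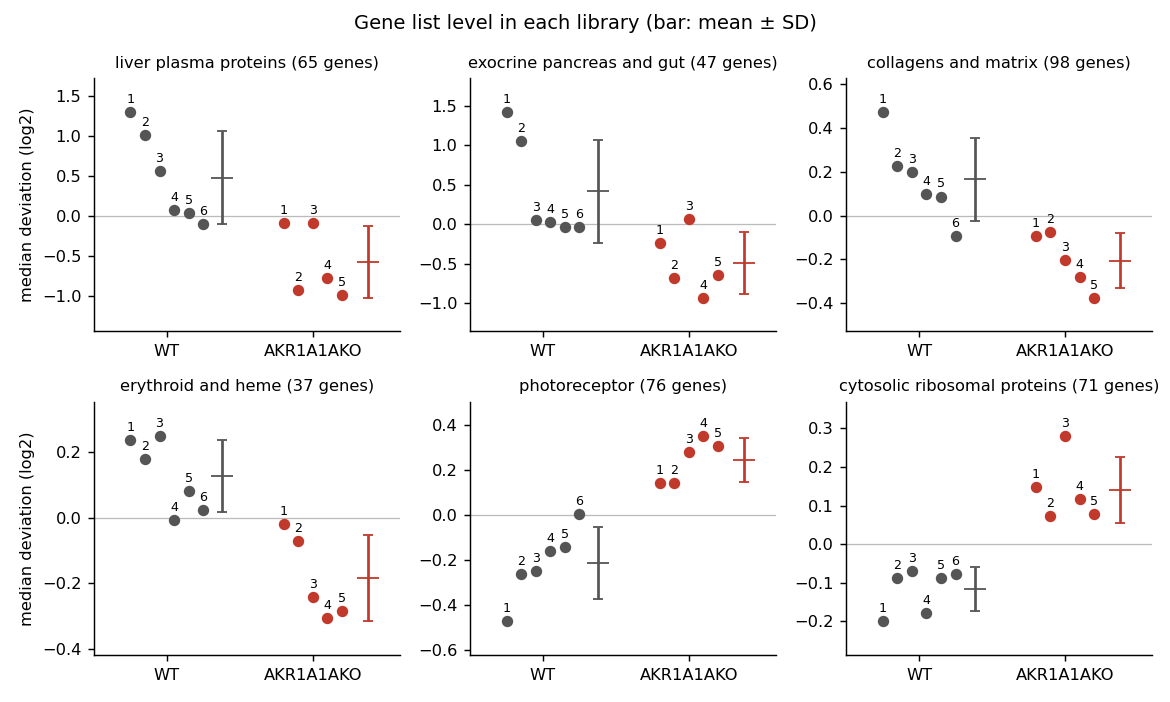
Level of 6 gene lists in each WT and AKR1A1AKO library (vertical axes), as the median over the list's tested genes of log2(CPM + 0.5) minus the gene's mean over the 11 libraries, with replicate numbers and mean ± SD. WT replicate 1 is the highest library of the liver, pancreas and matrix lists and the lowest of the photoreceptor list, and both genotypes are apart for photoreceptor and ribosomal protein genes.

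Genes of fatty acid oxidation and lipid synthesis gave 14 lower (17.3%) and 1 higher (1.23%) of 81 tested (median -0.26). Over all genes 9.28% were lower and 2.26% higher. PDK4, the kinase that turns off pyruvate oxidation, stood at 12.3, 11.9, 10.9, 9.84 and 11.7 CPM in AKR1A1AKO against 17.4 to 32 CPM in WT (median 22.9) and fell by 1.04 on the log2 scale (adjusted p = 0.000419). The ranges did not overlap. oxct1b, for an enzyme that uses ketone bodies, fell by 1.84. Both were called again without WT replicates 1 to 3 (-0.78 and -0.98), where the list had a median of -0.14. In that comparison 3 of the 81 genes were lower and 1 was higher, near the 3.97% and 1.16% of all genes.

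Collagens and other proteins of the extracellular matrix were lower by smaller amounts. Of 98 genes tested, 30 fell (30.6%) and none rose (median -0.41), against 9.28% and 2.26% of all genes. At an unadjusted p below 0.05, 3 were higher (3.06%, against 23.3% of all genes), and none was called higher by DESeq2 or limma-trend. COL4A1 and COL4A2, which form the main collagen of basement membranes, fell by 1.19 and 1.13 on the log2 scale. COL4A1 stood at 14.3, 12.8, 10.5, 8.45 and 10.3 CPM in AKR1A1AKO and at 19.6 to 43.9 CPM in WT (median 22), without overlap (standard error 0.209, adjusted p = 0.00186). col8a1a, a short-chain collagen, stood at 15.8, 16.3, 9.14, 8.01 and 11.2 CPM against 24.5 to 45.9 CPM in WT (median 39.1) and fell by 1.65 (adjusted p = 0.000285). MATN1 and HAPLN1, matrix proteins of cartilage, fell by 1.16 and 0.86, and PLOD2, which hydroxylates collagen for cross-linking, by 0.95. The bone and skin collagen col1a1a stood at 1250.0 to 1712 CPM against 1453 to 2143 CPM (-0.18, adjusted p = 0.177). Against WT replicates 4 to 6 alone the median was -0.25 and 12 of the 98 genes were lower, against 3.97% of all genes. COL4A1 (-0.92), COL4A2 (-0.81), col8a1a (-1.42), MATN1 (-0.76), HAPLN1 (-0.77) and PLOD2 (-0.71) were called again there.

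Of the 69 genes of cartilage, bone and skin development, 14 fell (20.3%) and 2, cyt1 and ANXA1, rose (2.9%), against 9.28% and 2.26% of all genes. The median was -0.23. Without WT replicates 1 to 3, 3 of the 69 genes were lower and 2 were higher, against 3.97% and 1.16% of all genes, with a median of -0.12. cyt1, an epidermal keratin, stood at 1405, 1364, 1590.5, 1455 and 1742 CPM in AKR1A1AKO against 889 to 1095 CPM in WT (median 1026) and rose (log2 fold change 0.59, standard error 0.0766, adjusted p = 0.000419), with 0.69 in that comparison. ANXA1, a phospholipid-binding annexin, stood at 115, 127, 140.5, 137 and 111 CPM against 41.8 to 64.4 CPM in WT (median 46.8) and rose by 1.37 (adjusted p = 1.09e-05), with 1.43 in the same comparison. The aggrecan gene acana fell by 0.81 with all WT libraries and was at -0.57 without WT replicates 1 to 3, under the fold threshold.

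Of 37 erythroid and heme genes, 12 fell (32.4%) and none rose, against 9.28% and 2.26% of all genes. The median was -0.41, or -0.22 over members with a mean log2 CPM above 1. At an unadjusted p below 0.05, 6 were higher (16.2%, against 23.3% of all genes), and none was called higher by DESeq2 or limma-trend. The transferrin receptors had the smallest p-values. tfr1b stood at 32.1, 32.7, 35.4, 29.6 and 43.6 CPM in AKR1A1AKO and at 85.9 to 130.4 CPM in WT (median 92). The ranges were far apart, and tfr1b fell by 1.5 on the log2 scale (standard error 0.123, adjusted p = 1.55e-05). tfr1a, which takes up iron in the red cells of zebrafish, stood at 8.03, 6.32, 4.51, 3.17 and 5.5 CPM against 17.8 to 33.5 CPM in WT (median 20.5) and fell by 2.01 (adjusted p = 0.000112). The globin gene hbae3 fell by 0.62 and RHAG, an ammonium channel of the red cell membrane, by 0.70. The ferritin heavy chain gene FTH1 (0.45) and uros (0.41), of heme synthesis, were higher in every AKR1A1AKO library than in any WT library, but below the fold threshold. Without WT replicates 1 to 3, 5 of the 37 erythroid genes were lower, against 3.97% of all genes, and the median was -0.30. tfr1b (-1.36) and tfr1a (-1.83) were called again there, and hbae3 (-0.51) and RHAG (-0.30) passed the adjusted p but not the fold threshold. In the glo1 knockouts tfr1b stood at 26.4 to 34.9 CPM in GLO1KO and 25.7 to 34.5 CPM in DKO, ranges that overlap that of AKR1A1AKO.

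Of 86 muscle genes, 16 fell and none rose (median -0.24), where 9.28% of all genes fell, and 1 was higher at an unadjusted p below 0.05 and none by DESeq2 or limma-trend. atp2a2a, a calcium pump of slow and cardiac muscle, stood at 27.4, 28, 23.6, 20.6 and 21 CPM in AKR1A1AKO against 39.7 to 68 CPM in WT (median 46.1), without overlap, and fell (log2 fold change -1.02, standard error 0.136, adjusted p = 0.000499). MYOM1 (ENSDARG00000104836), of the sarcomere M band, fell by 1.11 and the slow myosin smyhc1 by 0.66, the latter with overlapping ranges. The fast myosin myhz2 (-0.19, adjusted p = 0.128) and the abundant actin actc1b (-0.08, adjusted p = 0.512) did not pass. In the comparison without WT replicates 1 to 3, 8 of the 86 muscle genes were lower (median -0.17), against 3.97% of all genes. There atp2a2a (-0.81) and MYOM1 (-1.01) were called again and smyhc1 (-0.50) was under the fold threshold.

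Photoreceptor genes were higher in AKR1A1AKO. Of 76 genes of photoreceptors and the visual cycle, 23 rose and none fell, where 2.26% of all genes rose, and the median was 0.51. For 37 of them every AKR1A1AKO library exceeded every WT library, against 9.96% of all genes. Just 1 member was lower at an unadjusted p below 0.05, and none by DESeq2 or limma-trend. The arrestin saga, which ends the signal of rhodopsin, stood at 158, 163, 178, 196 and 178 CPM in AKR1A1AKO and at 62 to 99.5 CPM in WT (median 80.5). The groups were far apart, and saga rose (log2 fold change 1.14, standard error 0.11, adjusted p = 4.55e-05). GNAT1, the transducin subunit of rods, stood at 221, 227, 252, 237 and 235 CPM against 115 to 174 CPM in WT (median 153) and rose by 0.65 (adjusted p = 0.000704). Of the cone transducin genes, gnb3b rose by 0.64, and GNAT2 (0.58) was under the fold threshold although its 1264 to 1525 CPM lay above the WT range of 743 to 1081 CPM. PRPH2, of the outer segment discs, rose by 0.62, and cabp4 (ENSDARG00000008866), a calcium sensor of the photoreceptor synapse, by 1.0. The genes named here thus include components of rods, cones and their synapse.

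The summed level of the photoreceptor list was 10265 to 12572 CPM in WT replicates 1 to 3, 12879.8 to 14344 CPM in WT replicates 4 to 6 and 16593 to 19189 CPM in AKR1A1AKO. The AKR1A1AKO range thus stood above both sets of WT libraries. With WT replicates 1 to 3 left out the median was 0.40 and 11 of the 76 genes were higher, against 1.16% of all genes. saga (0.94, adjusted p = 7.00e-05) and cabp4 (0.89) were called again, and GNAT1 (0.50), PRPH2 (0.49) and gnb3b (0.52) passed the adjusted p but not the fold threshold. Leaving out WT replicate 1 alone took the count from 23 to 12. In GLO1KO and DKO the summed level was 18047 to 20718 and 18214 to 20284 CPM.

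Genes for proteins of the cytosolic ribosome were higher by a small amount. None of 71 reached a 1.5-fold change in edgeR, DESeq2 or limma-trend, but 62 were higher and none was lower at an adjusted p below 0.05, where 17.8% of all genes were higher and 19.7% lower. At an unadjusted p below 0.05, 66 were higher and none was lower. The median log2 fold change was 0.27, or 0.21 with scaling by library size only. RPLP0, a stalk protein of the large subunit, stood at 2867, 2716, 3159, 3026 and 2775 CPM in AKR1A1AKO and at 2075 to 2463 CPM in WT (median 2396). The ranges did not overlap (log2 fold change 0.31, standard error 0.0577, adjusted p = 0.00255). RPS2, of the small subunit, had a log2 fold change of 0.31, and RPL22L1 and RPL37 had 0.44 and 0.37. The summed level was 47997 to 52466 CPM in WT replicates 1 to 3, 48485 to 51866 CPM in WT replicates 4 to 6 and 57042 to 66089 CPM in AKR1A1AKO. The ranges of both WT sets overlapped here, and without WT replicates 1 to 3 the median was 0.27. In GLO1KO and DKO the summed level was 71999 to 82080.3 and 84613 to 91064 CPM. Of 82 genes of ribosome biogenesis, none was called by edgeR, DESeq2 or limma-trend, the median was -0.10, and 13 were higher (15.9%) and 24 lower (29.3%) at an unadjusted p below 0.05, against 23.3% and 24.9% of all genes.

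Immediate early genes, which respond within minutes to stimulation, had a median of 0.32 over 48 genes. DUSP2, CEBPB, BTG2, CCN1 and FOSL1 rose (10.4%) and klf6b fell (2.08%), against 2.26% and 9.28% of all genes. DUSP2, a phosphatase that turns off MAP kinases, stood at 33.8, 31.8, 38.5, 36.8 and 39.4 CPM in AKR1A1AKO against 21.4 to 30.4 CPM in WT (median 21.9) and rose (log2 fold change 0.63, standard error 0.0934, adjusted p = 0.000825), and without WT replicates 1 to 3 it was at 0.54, under the fold threshold. The AP-1 subunit gene FOSL1 stood at 19.3, 9.3, 12.3, 23.7 and 2.54 CPM against 4.1 to 9.29 CPM in WT (median 5.19) and rose by 1.17 (adjusted p = 0.0405 in edgeR, 0.0512 with scaling by library size only and 0.131 in limma-trend). AKR1A1AKO replicate 5 was below all WT libraries for FOSL1, and the growth inhibitor BTG2 (0.72) and the transcription factor CEBPB (0.68) also had their lowest AKR1A1AKO level there. Against WT replicates 4 to 6, BTG2 was at 0.76 (adjusted p = 0.0278), and FOSL1 (1.31, adjusted p = 0.0951) and CEBPB (0.71, adjusted p = 0.0568) did not pass. The count of higher genes was 3 without WT replicate 2, WT replicate 4, AKR1A1AKO replicate 1 or AKR1A1AKO replicate 4, and 8 without AKR1A1AKO replicate 5.

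**Figure D3:**
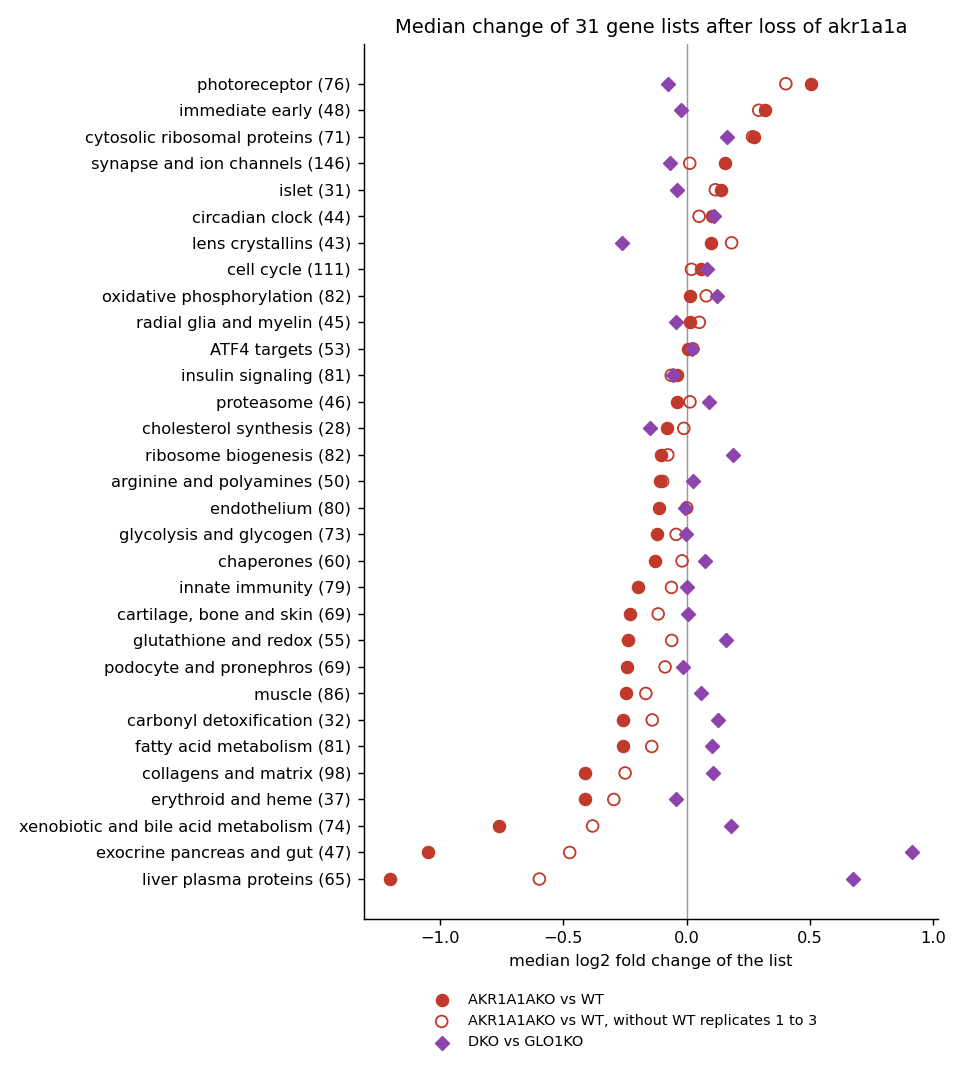
Median log2 fold change (horizontal axis) of 31 gene lists, with the number of tested genes in brackets, in AKR1A1AKO against WT (filled circles), in the same comparison without WT replicates 1 to 3 (open circles) and in DKO against GLO1KO (diamonds). The liver list lies at -1.20, -0.60 and 0.67, and the photoreceptor list at 0.51, 0.40 and -0.08.

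No enzyme gene on the list for clearing reactive carbonyls was called higher in AKR1A1AKO. Of 32 genes for aldehyde and alcohol dehydrogenases, aldo-keto reductases, carbonyl reductases and glyoxalases, none rose and 8 fell (25%, against 9.28% of all genes). The median was -0.26, and none was higher at an unadjusted p below 0.05 or by DESeq2 or limma-trend. DCXR, a reductase of dicarbonyls and xylulose, stood at 4.14, 3.47, 5.58, 3.67 and 3.56 CPM in AKR1A1AKO against 8.22 to 11.3 CPM in WT (median 9.63). The ranges did not overlap, and DCXR fell (log2 fold change -1.25, standard error 0.14, adjusted p = 0.000151). aldh2.2, a mitochondrial aldehyde dehydrogenase, stood at 30.9, 29.6, 36.6, 26.4 and 38.3 CPM against 48.4 to 77.9 CPM in WT (median 56.1) and fell by 0.89. aldh3a2b, a fatty aldehyde dehydrogenase, fell by 1.24, ALDH4A1, of proline breakdown, by 0.72, and AKR1B1 (ENSDARG00000006215), an aldose reductase, by 0.73. The aldehyde dehydrogenase genes aldh3a2a (-0.51), aldh3b1 (-0.39) and aldh9a1b (-0.41) passed the adjusted p but not the fold threshold. HAGH (-0.09), which completes the glyoxalase pathway, and PARK7 (-0.05) did not pass. Against WT replicates 4 to 6 alone 4 of the 32 genes were lower, where 3.97% of all genes were, and the median was -0.14. DCXR (-1.04), aldh2.2 (-0.64) and aldh3a2b (-0.63) were called there, and ALDH4A1 (-0.52) and AKR1B1 (-0.54) were under the fold threshold.

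Of 55 glutathione, thioredoxin and redox genes, 11 fell (20%, against 9.28% of all genes) and none rose. The median was -0.24, with 4 higher at an unadjusted p below 0.05 and none by DESeq2 or limma-trend. Catalase (CAT) stood at 52.9, 47.6, 55.2, 44.5 and 52.6 CPM in AKR1A1AKO against 66.7 to 119.5 CPM in WT (median 80.2) and fell (log2 fold change -0.79, standard error 0.144, adjusted p = 0.00226). The plasma peroxidase gene gpx3 fell by 0.60 and the mitochondrial thioredoxin reductase TXNRD2 by 1.08. Without WT replicates 1 to 3, TXNRD2 (-0.97) was called, and CAT (-0.47) and gpx3 (-0.46) were under the fold threshold. In that comparison 5 of the 55 genes were lower, against 3.97% of all genes, and the median was -0.06.

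The study examined the pathways of arginine, insulin and glucose. The arginine and glucose lists held a larger share of lower genes than all genes, and the insulin list a smaller one. Of 50 genes of arginine, urea and polyamine metabolism, 9 fell (18%) and 1, prodhb, rose (2%), against 9.28% and 2.26% of all genes. The median was -0.11, and without WT replicate 1 the count of lower genes was 5. OAT, ornithine aminotransferase, stood at 18.5, 17.1, 18.2, 17.9 and 21.1 CPM in AKR1A1AKO against 27.8 to 39.7 CPM in WT (median 30.8), without overlap, and fell (log2 fold change -0.78, standard error 0.0943, adjusted p = 0.000263). The creatine transporter SLC6A8 fell by 0.73. SAT1 (ENSDARG00000095908), which starts the breakdown of polyamines, was higher by 0.50, below the fold threshold, and a second gene of that symbol (ENSDARG00000035652) fell by 0.60, with -0.34 (adjusted p = 0.0994) without WT replicates 1 to 3. Of the urea cycle genes, ARG1 fell by 0.78 and ASS1 (-0.50) and ASL (-0.25) were not called, nor was the arginine transporter SLC7A1 (-0.13, adjusted p = 0.0671). OAT (-0.64) and SLC6A8 (-0.74) were called without WT replicates 1 to 3, and ARG1 (-0.73, adjusted p = 0.111) did not pass. In that comparison 5 genes of the list were lower and 1 was higher, against 3.97% and 1.16% of all genes, with a median of -0.10.

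Of 81 insulin signaling genes, IGFBP2, PRKAA2 and GRB10 (ENSDARG00000002013) fell and DDIT4 rose, a smaller share than over all genes in both directions. The count of lower genes was 8 without WT replicate 6. Without WT replicates 1 to 3, 3 of the 81 were lower and 1 was higher, near the 3.97% and 1.16% of all genes. The genes named INSR, for insulin receptors, had log2 fold changes of 0.19 (ENSDARG00000011948, adjusted p = 0.0523) and -0.34 (ENSDARG00000071524, adjusted p = 0.0227), the second below the fold threshold. PRKAA2, a catalytic subunit of AMP-activated kinase, stood at 3.97, 3.17, 2.18, 3.31 and 2.85 CPM in AKR1A1AKO against 5.08 to 8.41 CPM in WT (median 5.84) and fell (log2 fold change -1.04, standard error 0.167, adjusted p = 0.00131). It was at -0.96 without WT replicates 1 to 3, and IGFBP2, which binds insulin-like growth factors in plasma, was at -1.28 and -0.74 in both comparisons.

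Of 73 genes of glucose metabolism, 11 fell (15.1%) and 1 rose (1.37%), against 9.28% and 2.26% of all genes. The median was -0.12, or -0.04 without WT replicates 1 to 3. In the latter comparison 3 of the 73 were lower and 1 was higher, near the 3.97% and 1.16% of all genes. The member that rose was GPI (ENSDARG00000103826), the isomerase of glucose 6-phosphate, at 94, 105, 101, 63.8 and 81.5 CPM in AKR1A1AKO against 28.8 to 56.2 CPM in WT (median 43.7) (log2 fold change 1.04, standard error 0.163, adjusted p = 0.00112). A further gene of that symbol is listed, so reads of near-identical copies may have been divided. The glycolytic genes TPI1 (0.57) and ENO1 (0.43) were higher in every AKR1A1AKO library than in any WT library but below the fold threshold. UGP2, which makes UDP-glucose for glycogen, fell by 1.14, and SLC2A2, the glucose transporter of liver and islet in mammals, by 0.82. GYS1 (-0.34), the glycogen synthase of muscle, and both genes named PKM, pyruvate kinases (-0.03 for ENSDARG00000099730 and -0.26 for ENSDARG00000099860), were not called. Against WT replicates 4 to 6 alone GPI (1.17) and UGP2 (-0.89) were called, and SLC2A2 (-0.36, adjusted p = 0.106) was not.

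Among neural and islet genes, ABCC8, PAX6 (ENSDARG00000045936) and SSTR2 rose (9.68%) and ghrl fell (3.23%) of 31 islet genes tested (median 0.14). Over all genes 2.26% rose and 9.28% fell. Neurons also express several of these islet genes. The count of higher genes was 1 without WT replicate 1 or 2, and no islet gene was lower without WT replicate 1, 2, 3 or 6 or AKR1A1AKO replicate 2, 4 or 5. Without WT replicates 1 to 3 none was called in either direction (median 0.12). PAX6, a regulator of eye, brain and islet, stood at 96.8, 104, 111, 130.2 and 109.6 CPM in AKR1A1AKO against 51.5 to 94.7 CPM in WT (median 72) (log2 fold change 0.66, standard error 0.143, adjusted p = 0.00478) and was at 0.40 in that comparison, under the fold threshold. Of 45 glial genes, GPR17, AQP4, MYRF, VIM (ENSDARG00000044501) and mag fell (11.1%) and cd59b and her4.1 rose (4.44%). Over all genes 9.28% fell and 2.26% rose. With all 6 WT libraries the share of glial genes that fell was thus near that of all genes. Without WT replicates 1 to 3, 5 of the 45 were lower and 1 was higher, against 3.97% and 1.16% of all genes. mag, a glycoprotein of myelin, stood at 21.8, 17.6, 16.7, 15.9 and 21.1 CPM against 28.3 to 35.6 CPM in WT (median 30.7) and fell (log2 fold change -0.74, standard error 0.0923, adjusted p = 0.00036). her4.1, a Notch target of neural progenitors, stood at 6.02, 5.91, 6.21, 7.84 and 5.53 CPM against 2.74 to 4.3 CPM in WT (median 3.44) and rose by 0.88. Both were called without WT replicates 1 to 3 (-0.68 and 0.73). Of 146 synapse and ion channel genes, CPLX4 (ENSDARG00000059978) and GLRA3 rose (1.37%) and 9 fell (6.16%), against 2.26% and 9.28% of all genes. Neither CPLX4 nor GLRA3 was called without WT replicate 1 or 2. Without WT replicates 1 to 3 the median of 0.16 became 0.01. In that comparison 13 of the 146 were lower and none was higher, against 3.97% and 1.16% of all genes.

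The podocyte and pronephros list gave 12 lower (17.4%, against 9.28% of all genes) and none higher of 69. Its median was -0.24, or -0.12 without WT replicate 1 and -0.09 without WT replicates 1 to 3. In the last comparison 6 of the 69 were lower, against 3.97% of all genes. With all libraries 12 were higher at an unadjusted p below 0.05, and none was called higher by DESeq2 or limma-trend. The anion exchanger gene SLC4A2 (ENSDARG00000052330) fell by 1.01 and the sulfate transporter gene SLC26A1 by 0.84, with -0.70 and -0.55 without WT replicates 1 to 3. Of 79 innate immunity genes, 15 fell (19%) and 1, hamp, rose (1.27%), against 9.28% and 2.26% of all genes. The median was -0.20, or -0.12 without AKR1A1AKO replicate 5. The count of lower immunity genes was 10 without WT replicate 1 or AKR1A1AKO replicate 4. Without WT replicates 1 to 3, 6 of the 79 were lower and 2 higher, against 3.97% and 1.16% of all genes, and the median was -0.06. hamp, for the iron hormone hepcidin, stood at 1.55, 0.651, 1.06, 0.723 and 0.438 CPM in AKR1A1AKO against 0.201 to 0.434 CPM in WT (median 0.343), without overlap and at a low level, and rose (log2 fold change 1.46, standard error 0.329, adjusted p = 0.00554). STAT3, a transcription factor of cytokine signaling, fell by 0.79, and both were called without those libraries (1.55 and -0.61). Of 80 endothelial genes, 10 fell (12.5%, near the 9.28% of all genes) and none rose (median -0.11, or -0.07 without WT replicate 1), 12 were higher at an unadjusted p below 0.05, and DESeq2 called 1 higher and limma-trend none. The count of lower endothelial genes was 5 without WT replicate 1. It was 2 of 80 without WT replicates 1 to 3, against 3.97% of all genes, with a median of 0.001. These were the scavenger adaptor dab2 (ENSDARG00000031761, -0.78) and the semaphorin receptor nrp1b (-0.63).

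Some genes outside these patterns separated the genotypes with little spread. SV2C, a synaptic vesicle glycoprotein, had the smallest p-value of all genes. It stood at 1.24, 1.09, 1.47, 1.25 and 1.42 CPM in AKR1A1AKO and at 7.1 to 8.67 CPM in WT (median 7.85), and fell by 2.59 on the log2 scale (standard error 0.109, adjusted p = 3.65e-08). PIGP, a subunit of the enzyme that starts the synthesis of glycosylphosphatidylinositol anchors, stood at 5.35, 6.56, 6.15, 5.59 and 6.05 CPM against 13.3 to 15.9 CPM in WT (median 15) and fell by 1.33 (adjusted p = 8.55e-07). COX7C, a subunit of cytochrome c oxidase, stood at 71.3, 75.5, 74.6, 69.5 and 66 CPM against 110.1 to 131 CPM in WT (median 119.5) and fell by 0.73 (adjusted p = 1.16e-05). The groups were far apart for all 3 genes, and without WT replicates 1 to 3 the log2 fold changes of SV2C, PIGP and COX7C were -2.61, -1.35 and -0.71. COX7C was the only gene called among 82 of oxidative phosphorylation. SV2C and COX7C lie on the chromosome of akr1a1a and appear again with its neighbours.

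Among the genes that rose, CCNF, a cyclin of a ubiquitin ligase, stood at 26.5, 28.3, 27.8, 28.9 and 23.7 CPM in AKR1A1AKO against 11.3 to 14.5 CPM in WT (median 13.6) (log2 fold change 1.03, standard error 0.0797, adjusted p = 1.09e-05). ppa1a, a pyrophosphatase, stood at 14, 15.4, 14.4, 16.9 and 11.8 CPM against 3.95 to 5.89 CPM in WT (median 4.94) (log2 fold change 1.57, standard error 0.116, adjusted p = 9.23e-06). MFN1, a mitofusin that joins the outer membranes of mitochondria, stood at 8.36, 8.73, 11.8, 14.5 and 12.1 CPM against 3.12 to 4.94 CPM in WT (median 3.73) (log2 fold change 1.52, standard error 0.16, adjusted p = 8.72e-05). None of these ranges overlapped. ACADSB (ENSDARG00000098174), a mitochondrial acyl-CoA dehydrogenase, stood at 21.2, 17.5, 22.7, 21.5 and 13.8 CPM against 3.75 to 7.79 CPM in WT (median 6.65) (log2 fold change 1.61, standard error 0.17, adjusted p = 8.72e-05), and a further gene of that symbol is listed. In the comparison without WT replicates 1 to 3 the log2 fold changes were 1.03 for CCNF, 1.43 for ppa1a, 1.32 for MFN1 and 1.61 for ACADSB. In the glo1 knockouts MFN1 stood at 8.29 to 10.3 CPM in GLO1KO and 8.79 to 11.3 CPM in DKO, and ACADSB at 0.566 to 1.4 and 0.483 to 3 CPM. Others that rose most were ccdc125 (2.1), si:dkeyp-51b9.3 (1.4), zgc:158862 (1.32), cspg4bb (1.28) and REEP6 (1.26).

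Among the genes that fell most was a gene named SMC1A (ENSDARG00000055754), for a cohesin subunit. It had 0, 1, 0, 0 and 17 counts in the AKR1A1AKO libraries and 332 to 521 counts in WT. The fitted difference of -6.80 on the log2 scale (standard error 0.491, adjusted p = 8.44e-06) depends on the prior count of the fit and was -10.1 without AKR1A1AKO replicate 5. A second gene of that symbol (ENSDARG00000058203) stood at 129 to 150.0 CPM in AKR1A1AKO and 127 to 141 CPM in WT, and the division of reads between near-identical copies was not tested. In the glo1 knockouts the first gene was counted, at 5.73 to 10.5 CPM in GLO1KO and 5.98 to 10.6 CPM in DKO. loc101882496 stood at 2.07, 1.14, 0.201, 0.222 and 0.438 CPM against 9.77 to 18.3 CPM in WT (median 11.9) (log2 fold change -3.96, standard error 0.429, adjusted p = 0.000111). ENSDARG00000099056, which has no symbol, stood at 2.04, 1.95, 2.67, 3.2 and 1.75 CPM against 18.7 to 28.7 CPM in WT (median 24.1) (log2 fold change -3.35, standard error 0.167, adjusted p = 1.68e-07). Their log2 fold changes were -3.89 and -3.35 without WT replicates 1 to 3. TNNI2 (ENSDARG00000045592), a fast muscle troponin gene and 1 of 6 of that symbol, and scpp5, of tooth and scale mineralization in fish, fell by 2.25 and 2.55, with -1.25 and -1.01 without those libraries.

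**Figure D4:**
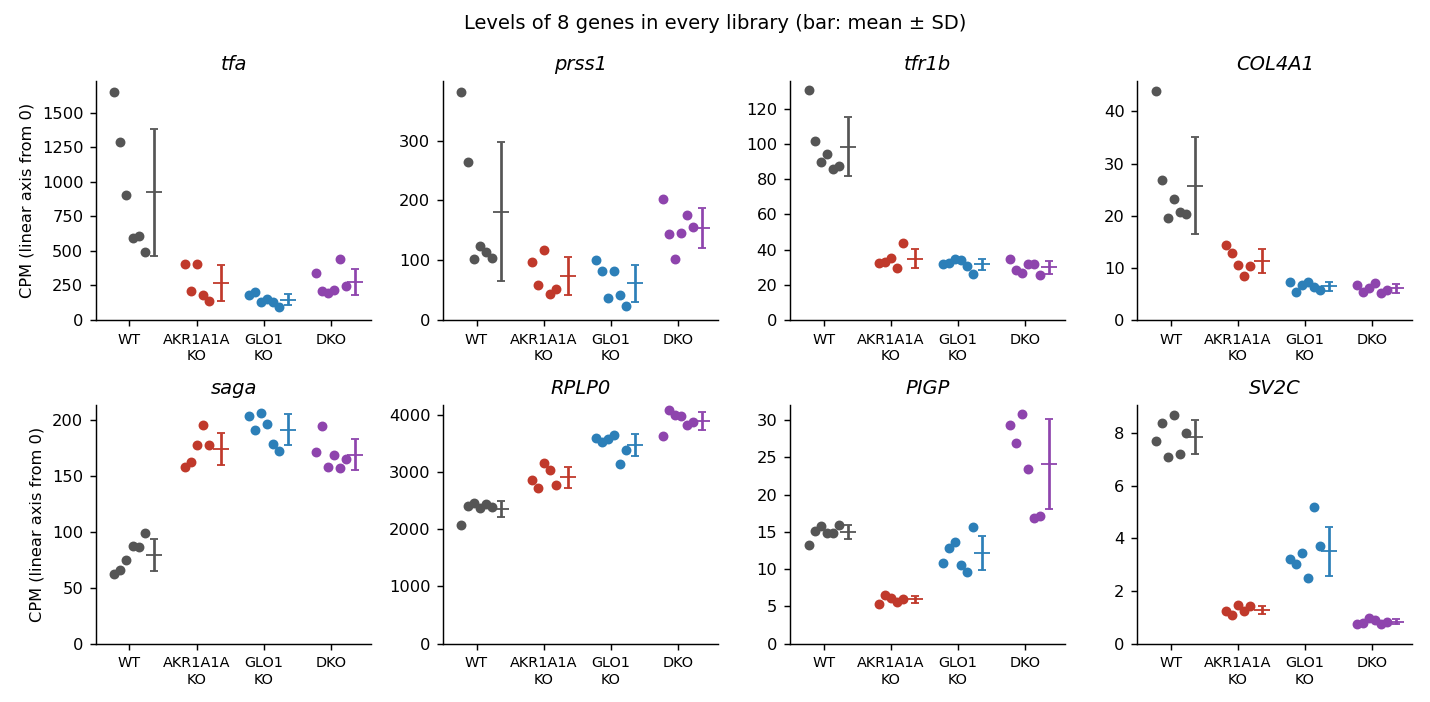
CPM (vertical axes, linear from 0) of 8 genes in every library of the 4 genotypes, with mean ± SD at the right of each group (n = 6, 5, 6 and 6). AKR1A1AKO lies below WT for tfa, prss1, tfr1b, COL4A1, PIGP and SV2C, with overlap for prss1, and above WT for saga and RPLP0.

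The share of genes called was larger near akr1a1a in gene order than over the genome, a description given without a test. The order came from the RefSeq annotation of GRCz12tu, another assembly than that of the counts, in which 13639 of the tested genes (68.6%) could be placed by symbol. Among the 25 placed genes on each side 14 of 50 were called (28%), among 100 on each side 34 of 200 (17%) and among 200 on each side 64 of 400 (16%), where 11.1% of all placed genes were called. At an adjusted p below 0.001, 6 of the nearest 50 passed (12%), against 1.41% of the placed genes. The share called without WT replicates 1 to 3 was 20% of the nearest 50 and 4.89% of the placed genes.

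The neighbours moved in both directions. si:dkey-65b12.12, 4 placed genes away, stood at 2.37, 2.25, 1.78, 1.5 and 2.16 CPM in AKR1A1AKO against 0.255 to 0.575 CPM in WT (median 0.438) and rose (log2 fold change 2.21, standard error 0.21, adjusted p = 4.45e-05). PARP8, an ADP-ribosyltransferase 4 genes away on the other side, stood at 17.2, 16.4, 16.5, 18.2 and 15.2 CPM against 25.5 to 35.8 CPM in WT (median 30.2) and fell (log2 fold change -0.85, standard error 0.0929, adjusted p = 0.000113). Neither pair of ranges overlapped. Of the others nearest, SHPK, sedoheptulose kinase, rose by 0.80, trpv1, a heat-sensing channel, fell by 1.5, and CNOT6L, of messenger RNA deadenylation, fell by 0.64, at 7, 8 and 15 genes. si:dkey-3h3.3, si:dkey-58f10.6 and the chemokine gene cxcl20 rose by 0.59, 0.93 and 0.78, and CDS1, of phosphatidylinositol synthesis, and si:dkey-40c11.2 fell by 0.59 and 0.59, with adjusted p-values of 0.00521 to 0.0291. Without WT replicates 1 to 3, cxcl20 (adjusted p = 0.0708) and si:dkey-40c11.2 (adjusted p = 0.2) did not pass and CDS1 (-0.33) was under the fold threshold, whereas the other 7 were called.

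Farther out, SV2C lay 35 genes away, COX7C 40, serpina7 141, ccdc125 170, cyp1d1 183 and ANXA1 184. serpina7 stood at 3.64, 3.17, 4.28, 2.98 and 3.04 CPM in AKR1A1AKO and at 0 to 0.396 CPM in WT (median 0.141), and rose by 4.21 (adjusted p = 2.32e-05). Another 4 were chosen after their values were seen. si:dkey-58f10.14, 19 genes away, stood at 0.488 to 0.69 CPM in AKR1A1AKO and 0 to 0.0503 CPM in WT. DMRT1, a regulator of testis development 26 genes away, stood at 1.13 to 2.14 CPM against 0.106 to 0.453 CPM and rose by 2.59. POMT1, a protein mannosyltransferase at 58 genes, and snapc4, of small nuclear RNA transcription at 61, fell by 1.07 and 1.04.

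**Figure D5:**
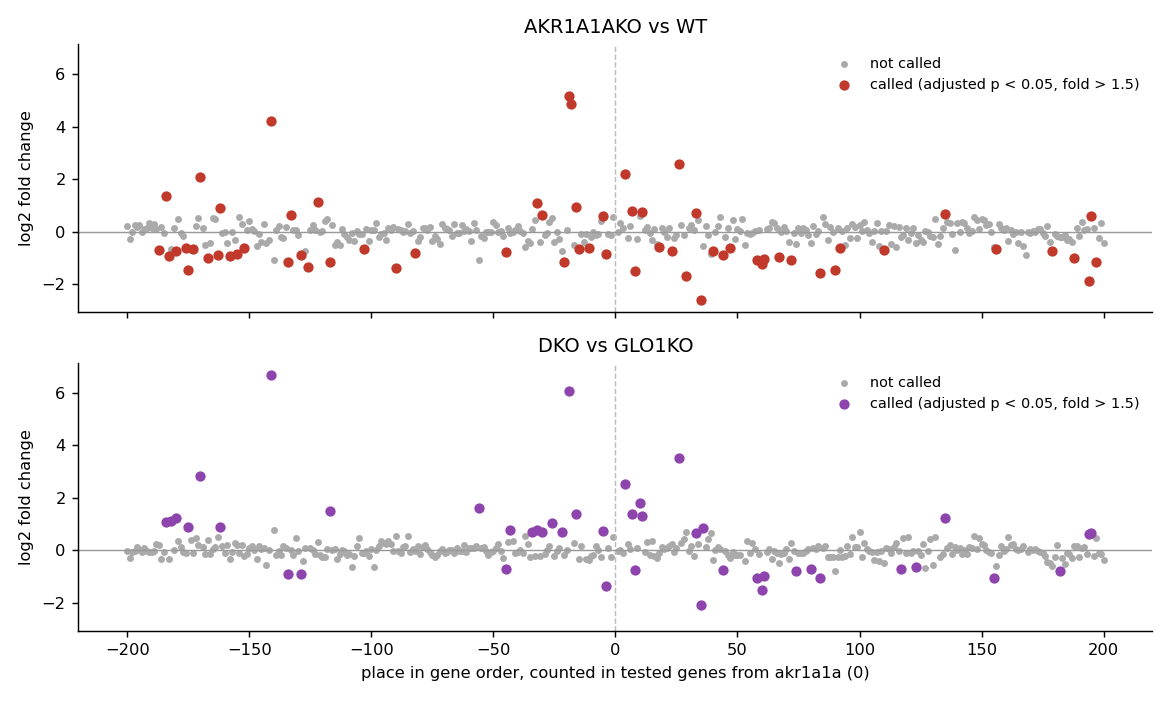
Log2 fold change (vertical axes) of the 200 placed genes on each side of akr1a1a (dashed line), by place in gene order counted in genes (horizontal axis), in AKR1A1AKO against WT (top) and DKO against GLO1KO (bottom). Called genes are coloured, 64 of 400 in the top panel and 45 of 394 in the bottom panel, and the tall points of serpina7, si:dkey-58f10.14, si:dkey-65b12.12 and DMRT1 appear in both.

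The loss of akr1a1a in larvae that already lacked glo1 gave more higher than lower genes. The comparison of DKO with GLO1KO shares no library with that of AKR1A1AKO with WT. In it 830 of 19582 genes (4.24%) were called, 584 (2.98%) higher and 246 (1.26%) lower, or 521 and 344 with scaling by library size only. Of the genes called lower in AKR1A1AKO, 342 were higher in DKO than in GLO1KO, which is 18.5% of the first list and 58.6% of the second. In both comparisons 35 genes were higher (7.78% and 5.99% of each list) and 48 were lower (2.6% and 19.5%). Of these 83 genes 51 could be placed, and 27 of them (52.9%) lay within 200 placed genes of akr1a1a, a window that held 2.93% of the placed genes. Of the 254 placed genes called in opposite directions, 4 (1.57%) lay there. SV2C, for example, stood at 0.73 to 0.967 CPM in DKO against 2.48 to 5.19 CPM in GLO1KO (-2.08), and PARP8, ccdc125, DMRT1 and ANXA1 had log2 fold changes of -1.34, 2.84, 3.53 and 1.07.

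The liver and pancreas lists were opposite in sign between the backgrounds. In DKO against GLO1KO 34 of 62 liver genes rose and 1 fell (median 0.67), and 32 of 47 pancreas and gut genes rose (median 0.92). tfa stood at 93.1 to 203 CPM in GLO1KO and 195 to 439.8 CPM in DKO, prss1 at 23.6 to 100.5 and 101 to 202 CPM, and CEL at 0.494 to 1.52 and 3.65 to 6.81 CPM. The AKR1A1AKO range of tfa, 138 to 405 CPM, thus overlapped those of GLO1KO and of DKO, lay inside neither, and was below WT. Whether akr1a1a loss differed between the backgrounds was tested as an interaction over all 23 libraries, in which 2690 of 20136 genes (13.4%) were called, 2055 (10.2%) with the more positive and 635 (3.15%) with the more negative effect on the glo1 knockout background. The first set included 56 liver genes and 37 pancreas and gut genes, and the second 34 photoreceptor genes. Without WT replicates 1 to 3, 1624 genes were called.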

How the data were processed

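RNA was sequenced by the study from whole larvae at 96 hpf, 20 larvae to a clutch, on a DNBSEQ platform with strand-specific mRNA libraries. The authors cleaned the reads (SOAPnuke), mapped them to the GRCz11 genome (HISAT2) and deposited expected counts per gene (featureCounts 2.0.3), of which 94 genes (0.411%) held values that were not whole. These were rounded to whole numbers. Counts of different libraries differed in total, and no column lacked a sample. Symbols came from a gene name table (20170 of 22856 genes, 88.2%), whose human-style capitals were kept.

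AKR1A1AKO and WT libraries were compared with edgeR 4.0.16 (R 4.3.3), with TMM scaling, its default filter on low counts over these 11 libraries and a quasi-likelihood test. A call needed both an adjusted p (Benjamini-Hochberg, over all genes tested) below 0.05 and more than a 1.5-fold difference. DKO against GLO1KO and the interaction were fitted likewise. Adjusted p-values in the text come from edgeR. Gene lists were described by counts and medians without a test. The members and lists were chosen with earlier results of these data known. Named genes were the targeted genes, genes the study measured by RT-qPCR, the 12 that rose and 12 that fell most among called genes with separate ranges and a mean log2 CPM over 1, the 10 smallest p-values, the 4 smallest in each list and the 5 called genes nearest akr1a1a on each side. Genes named to complete a count of 5 or fewer, such as IGFBP2, GRB10, prodhb and GLRA3, and a few well-known members of a list, such as col1a1a, prss1 and apoa2, were chosen after their values were seen. Alternatives were DESeq2 1.42.0, limma-trend 3.58.1, other scaling, filters and thresholds, a replicate block, all 23 libraries in 1 fit and leaving out libraries. Simulated counts of 19801 genes held 200 changed genes. On these counts the test for AKR1A1AKO against WT recovered 96% of 2-fold and 99% of 3-fold changes with 4 false calls. These figures describe the simulated counts only. The rate of false calls in the data, where 2296 genes were called and the WT libraries were spread along the main axis, was not tested. akr1a1a, ins, aldh3a1, akr7a3 and akr1b1.1 were not analysed here, and some genes that met the naming rule are not reported here.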

Additional observations from a re-analysis of the deposited data

Results flagged for a closer look

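Of 300 sets of libraries examined (each named gene in WT and in AKR1A1AKO), 20 (6.67%) held 1 library far from the others by Dixon's test, a share to be read against the 1 in 20 that chance gives. WT replicate 1 was the highest library by such a gap at 43.4 CPM for amy2a, 43.9 CPM for COL4A1, 40.1 CPM for COL4A2, 64.4 CPM for ANXA1, 130.4 CPM for tfr1b, 33.5 CPM for tfr1a, 22.9 CPM for si:dkey-40c11.2 and 5.76 CPM for AQP4. WT replicate 1 was the lowest library by such a gap at 2075 CPM for RPLP0 and 73.8 CPM for ENO1. WT replicate 4 was the lowest library by such a gap at 89.2 CPM for RPL22L1. WT replicate 6 was the highest library by such a gap at 30.4 CPM for DUSP2. AKR1A1AKO replicate 1 was the highest library by such a gap at 150.0 CPM for SMC1A (ENSDARG00000058203). AKR1A1AKO replicate 3 was the highest library by such a gap at 14.2 CPM for SLC5A1. AKR1A1AKO replicate 5 was the highest library by such a gap at 20.3 CPM for SLC7A1, 230.3 CPM for PKM (ENSDARG00000099730), 0.465 CPM for SMC1A (ENSDARG00000055754) and 2.08 CPM for si:dkey-3h3.3. AKR1A1AKO replicate 5 was the lowest library by such a gap at 4.32 CPM for zgc:158862 and 27.25 CPM for CCN1.

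For 88 of the 150 genes named here the effect of akr1a1a loss differed with glo1 in a test of the difference itself, an edgeR interaction over all 23 libraries at an adjusted p below 0.05 and above 1.5-fold. Most of these genes were chosen by their change in AKR1A1AKO against WT, whose libraries also enter the interaction, so the share called reflects that choice and is not set against that of all genes. Values are log2 differences of DKO minus GLO1KO less AKR1A1AKO minus WT. Among plasma protein and apolipoprotein genes they were 2.68 for tfa, 2.47 for apoa1b, 2.45 for apoa2, 2.2 for fabp10a, 2.45 for serpinf2a, 2.87 for serpinf2b, 2.32 for c8a and 3.71 for apcs. Among genes of pancreas and gut they were 2.64 for prss1, 2.57 for ctrb.1, 2.5 for amy2a, 4.28 for CEL (ENSDARG00000029822), 2.58 for SLC5A1, 1.34 for cdx1a and 1.24 for cdx1b. For drug, bile acid and lipid metabolism they were 2.43 for CYP7A1, 2.94 for FGF19, 1.98 for abcc2, 2.19 for UGT1A1, 0.61 for cyp1d1, 0.61 for PDK4 and 2.58 for oxct1b. In matrix and cartilage genes the differences were 1.1 for COL4A1, 0.99 for COL4A2, 2.27 for col8a1a, 1.29 for MATN1, 1.97 for HAPLN1, 1.09 for PLOD2 and 0.94 for acana. In erythroid and muscle genes they came to 1.42 for tfr1b, 1.66 for tfr1a, 0.71 for hbae3, 1.08 for RHAG, 1.02 for atp2a2a and 0.80 for MYOM1 (ENSDARG00000104836). Carbonyl and redox genes gave 1.13 for DCXR, 1.32 for aldh2.2, 1.13 for aldh3a2b, 0.72 for ALDH4A1, 1.18 for AKR1B1 (ENSDARG00000006215), 0.64 for aldh3a2a, 1.08 for CAT, 0.87 for gpx3 and 0.92 for TXNRD2. Genes of arginine, insulin and glucose gave 0.74 for OAT, 0.64 for SLC6A8, 0.91 for ARG1, 0.72 for ASS1, 0.77 for PRKAA2, 1.51 for IGFBP2, 0.74 for GRB10 (ENSDARG00000002013), 1.09 for UGP2, 1.64 for SLC2A2 and -1.68 for GPI (ENSDARG00000103826). In photoreceptor and immediate early genes the differences were negative, at -1.32 for saga, -0.88 for GNAT1, -1.18 for cabp4 (ENSDARG00000008866), -0.69 for DUSP2, -2.60 for FOSL1 and -1.03 for CEBPB. Other genes with a positive difference were at 1.16 for SAT1 (ENSDARG00000035652), 0.91 for SLC26A1, 0.73 for STAT3, 1.00 for dab2 (ENSDARG00000031761), 2.32 for PIGP, 6.96 for SMC1A (ENSDARG00000055754), 4.72 for loc101882496, 1.94 for ENSDARG00000099056, 3.07 for TNNI2 (ENSDARG00000045592), 3.50 for scpp5, 0.76 for trpv1, 0.89 for AQP4, 3.21 for ghrl (not tested in DKO against GLO1KO alone) and 0.71 for MYRF. Those with a negative one were at -0.82 for PAX6 (ENSDARG00000045936), -0.80 for her4.1, -1.42 for hamp, -1.48 for CCNF, -1.42 for MFN1, -1.87 for zgc:158862, -1.14 for cspg4bb, -1.53 for REEP6, -0.80 for CPLX4 (ENSDARG00000059978), -0.78 for DDIT4, -0.75 for ABCC8, -0.92 for SSTR2, -0.73 for cd59b and -0.66 for GLRA3. What lay behind these differences was not tested.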

How the results depend on the processing

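In AKR1A1AKO against WT, the count of called genes was 2293 with DESeq2 size factors, 2493 with scaling by library size only (284 higher and 2209 lower), 2393 with no filter, 2391 with DESeq2, 2200 with limma-trend and 2441 with all 23 libraries in 1 fit. It was 1023 without WT replicates 1 to 3 (chosen after seeing the data, with 3 fewer WT libraries), 7470 with no fold change threshold and 824 with a fold change above 2. Leaving out each library in turn gave 1715 to 2687, the lowest without WT replicate 1. For DKO against GLO1KO such fits gave 678 to 913, and for the interaction 2260 to 3063, with 1624 for the interaction without WT replicates 1 to 3.

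The deviations of same-numbered AKR1A1AKO and WT libraries had correlations of 0.282, -0.029, 0.054, 0.287 and 0.143. Replicate 1 alone correlated best with its own number. So few libraries cannot decide whether the numbers pair them. For AKR1A1AKO against WT the replicate block left out WT replicate 6, a number that AKR1A1AKO lacks. With the block 2702 genes were called (583 higher and 2119 lower). Without the block, 2687 were called with WT replicate 6 left out (567 higher and 2120 lower) and 2296 with all libraries. The block gave 770 for DKO against GLO1KO and 2861 for the interaction.

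Of the 150 genes named, 109 stayed on the same side of both thresholds without WT replicates 1 to 3, 38 no longer passed, and 2 not called in any fit changed sign: GLO1 (0.00612) and the SMC1A copy ENSDARG00000058203 (-0.0115). Another, ghrl, was not tested there. Scaling by library size only moved the median of all genes from -0.007 to -0.069 and left 11 named genes short of a threshold, and it turned AKR1A1 (-0.017) and that SMC1A copy (-0.060), which was at -0.000883 with all 23 libraries in 1 fit. In fits without 1 library, GLO1 ran from -0.0392 to 0.0227 and the SMC1A copy from -0.0337 to 0.022, and 2 to 18 named genes no longer passed, the most without AKR1A1AKO replicate 4. The cause of these changes was not tested.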
